A study of Mus musculus with 8 samples.

Results

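The 9 genes described here encode cyclins and kinases of the meiotic divisions: the A-type cyclins Ccna1 and Ccna2, the B-type cyclins Ccnb1, Ccnb2 and Ccnb3, the phosphatase Cdc25c, and the kinases Plk1, Aurka and Aurkc. They were taken by symbol from the deposited gene count tables, where all 9 were present among 19276 entries, and all 9 passed the filter on low counts in every comparison. The libraries came from testes of 6-week-old C57BL/6 mice, heterozygous or homozygous for an Rnf17 variation that the labels do not describe further. RNF17 is a Tudor domain protein of germ cell granules. The 4 groups held 2 libraries each: heterozygous testis, homozygous testis, immunoprecipitate with the RNF17 antibody numbered 1774, from heterozygous testis lysate, and the same immunoprecipitate (IP) from homozygous testis lysate. The comparison group in testis was heterozygous rather than wild type, and the homozygous IP shows what the antibody and beads recover in that genotype. Nothing in the labels ties the libraries to individual animals or says whether testes were pooled, so the replicate spread behind each p-value may be partly technical.

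At the G2 to M transition, A- and B-type cyclins bind and activate CDK1, and CDC25 phosphatases remove the inhibitory phosphates that WEE1 and its relative place on the kinase. PLK1 and the Aurora kinases act beside CDK1 in centrosome maturation, spindle assembly and chromosome segregation. In the testis, spermatocytes store transcripts of many of these genes through the long pachytene stage. Cyclin A1 is required in late spermatocytes for entry into the first meiotic division, and AURKC is the Aurora kinase of the chromosomal passenger complex that is largely restricted to germ cells.

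Many genes that act at this transition share short promoter letters, which are shown here for the members that hold them in the bases printed. RefSeq promoter sequences (GRCm38.p6) were used for 7 of the 9 genes, all but Ccna2 and Cdc25c. The CHR element, searched as TTTGAA, is bound by the MuvB complexes that time G2/M transcription, and the CCAAT box, searched as CCAAT, is bound by NF-Y. Both were searched on both strands in 300 bases around each start (250 before, 50 after), and capitals mark these letters or their reverse complement. The first lines give the 120 bases before the start of each gene shown, on the gene's own strand. Those of Ccnb3 and Aurkc held neither the CHR nor the CCAAT letters and are not printed.
Plk1, chr7:122159315-122159434, plus strand: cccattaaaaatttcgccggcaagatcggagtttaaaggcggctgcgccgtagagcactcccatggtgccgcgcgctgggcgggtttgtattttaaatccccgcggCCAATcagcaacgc
Ccnb2, chr9:70421555-70421674, minus strand: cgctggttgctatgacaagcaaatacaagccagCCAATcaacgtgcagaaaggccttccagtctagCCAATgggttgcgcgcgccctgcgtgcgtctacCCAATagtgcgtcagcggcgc
Ccnb1, chr13:100786487-100786606, minus strand: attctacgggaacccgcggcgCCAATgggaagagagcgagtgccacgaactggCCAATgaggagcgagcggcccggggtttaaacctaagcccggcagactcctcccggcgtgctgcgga
Aurka, chr2:172370571-172370690, minus strand: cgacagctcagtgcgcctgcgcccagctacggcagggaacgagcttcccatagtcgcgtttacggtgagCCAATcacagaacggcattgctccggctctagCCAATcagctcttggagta
Ccna1, chr3:55055056-55055175, minus strand: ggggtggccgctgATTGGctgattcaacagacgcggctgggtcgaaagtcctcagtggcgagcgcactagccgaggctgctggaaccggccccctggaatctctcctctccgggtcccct
In Plk1, Ccnb2 and Aurka the CHR letters lay just after the start, within these 26 bases.
Plk1, chr7:122159455-122159480: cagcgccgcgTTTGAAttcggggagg
Ccnb2, chr9:70421535-70421560: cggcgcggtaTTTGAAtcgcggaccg
Aurka, chr2:172370523-172370548: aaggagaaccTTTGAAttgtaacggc

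The CHR letters began 31 bases after the start of Plk1, 5 after that of Ccnb2 and 33 after that of Aurka, and Ccnb2 held a further match 167 bases before its start. The windows of Ccna1, Ccnb1, Ccnb3 and Aurkc held no match to these letters. CCAAT was found 3 times before the start of Ccnb2, in pairs before Ccnb1 and Aurka, and once each in Plk1, Ccna1 and, 25 bases after the start, Aurkc. The letters that MYB factors bind, searched as CAACGG or CAACTG and as the forms of either that begin with T, were found 5 times in the window of Ccnb3 and 2 times in that of Aurka. Among all 32544 RefSeq promoter windows of the same length, 17.8% held TTTGAA, 37.4% held CCAAT and 28.3% held one of the MYB letters. These matches describe the sequence and not measured binding.

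The libraries differed in depth and in cell content in ways that touch every result below. Reads in genes ranged from 6140624 to 50575649 in the testis libraries and from 5661754 to 9222913 in the IPs, and the numbering of replicates ran with depth in testis, where both replicate 2 libraries were deeper than both replicate 1 libraries. Rnf17 itself was at 507 and 551 CPM (reads of a gene per 1000000 TMM-scaled gene reads) in heterozygous testis and at 50.3 and 97.7 CPM in homozygous testis, so that each library followed its label; the difference (log2 fold change -2.84 ± 0.61 SE) had an adjusted p of 0.139 by edgeR's quasi-likelihood test and of 4.78e-04 by DESeq2. The summed level of 9 markers of elongating spermatids was 4182 and 22139 CPM in heterozygous testis but 270 and 226 CPM in homozygous testis. In the IPs the same sum was 6663 and 6392 CPM in heterozygous and 272 and 303 CPM in homozygous libraries. In such bulk samples, fewer cells of a type and less RNA per cell cannot be told apart.

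Per kilobase of exon, Ccna1 and Aurka stood highest of the 9 in heterozygous testis and Aurkc lowest. Ccna1 was at 60.9 ± 14.9 CPM per kb (SD, n = 2 here and below) and Aurka at 48.7 ± 14.6, and their ranges overlapped. Both replicates of Aurka lay above both of the next gene, Ccnb2, at 14.2 CPM per kb. From Ccnb2 the order went on through Plk1 (12.3 CPM per kb), Ccnb1 (7.74), Ccna2 (5.09), Cdc25c (3.59) and Ccnb3 (2.98), with each neighbour's range overlapping the next. Ccnb3 did not overlap Aurkc, which was at 1.23 ± 0.341 CPM per kb. In homozygous testis Ccna1 and Aurka were again highest (44.6 and 42.5 CPM per kb) and Aurkc lowest (1.09 CPM per kb). In both IPs Ccna1 and Aurka led, Ccnb2 and Plk1 followed (23.0 and 22.7 CPM per kb in heterozygous, 18.8 and 27.9 in homozygous libraries), and Cdc25c came next, at 8.12 and 7.13 CPM per kb. These are orders of levels between genes; all values from here on are CPM without length and compare 1 gene across libraries.

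**Figure D1:**
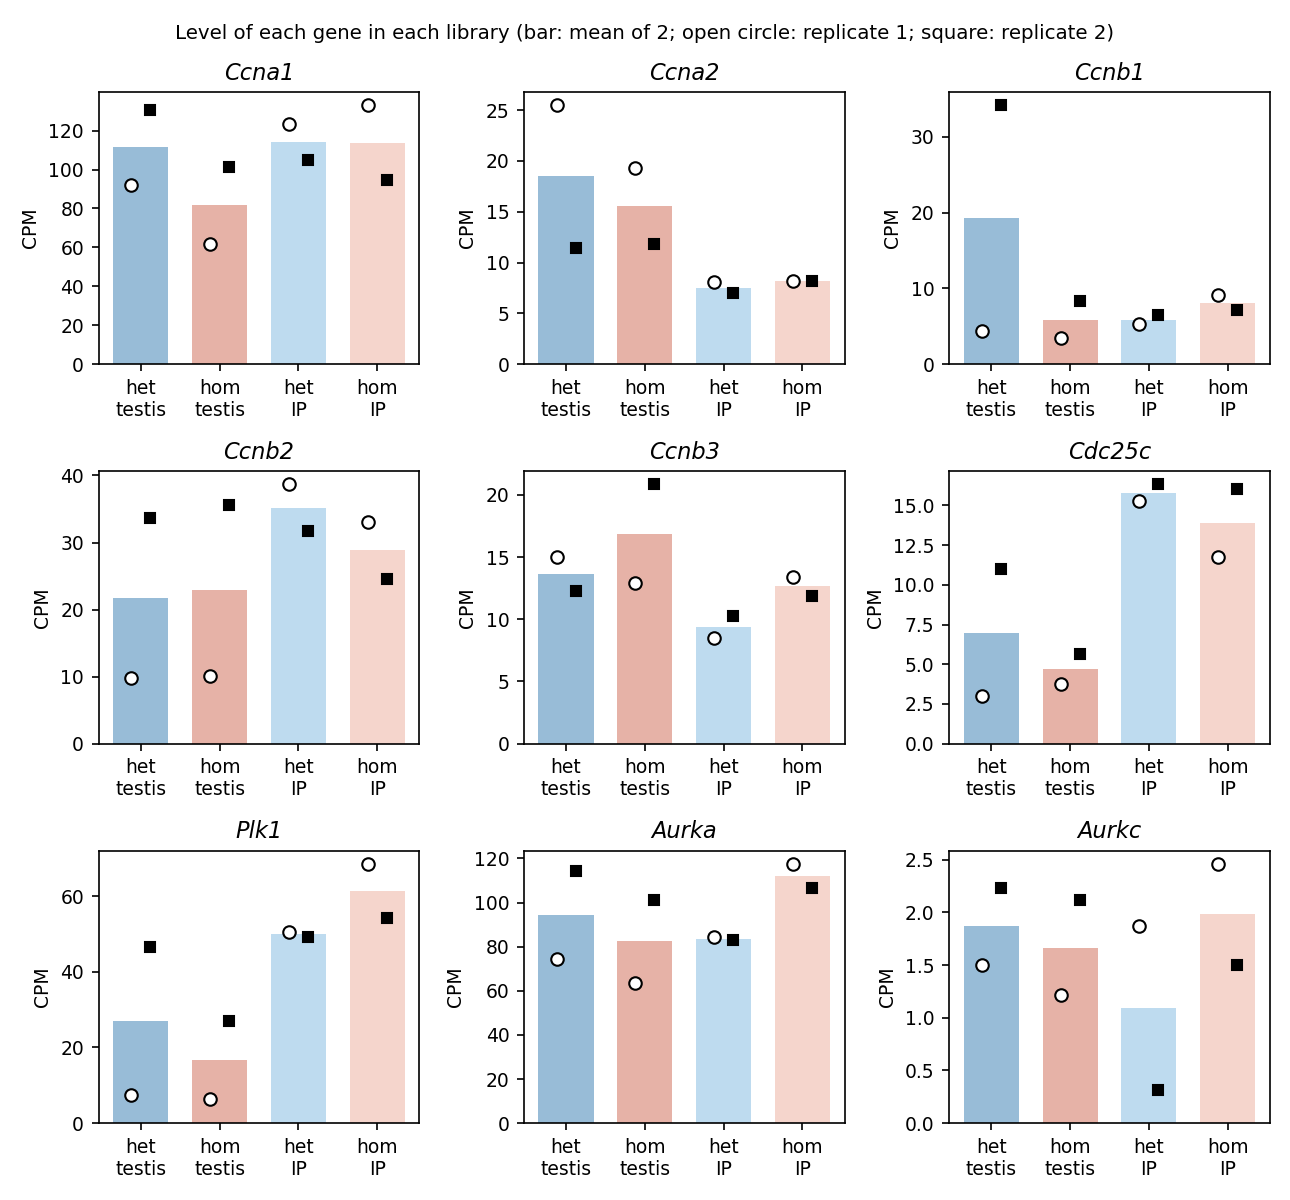
Level of each of the 9 genes in all 8 libraries, in CPM on linear axes from 0 that differ between panels; bars are the mean of the 2 libraries of a group, open circles are replicate 1 and squares replicate 2. In both testis groups the replicate 2 square of Ccnb2 and Plk1 lies far above the replicate 1 circle, in the IPs the 2 points lie closer, and Ccna2 is lowest and Cdc25c and Plk1 highest in the IPs.

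Ccna1, the germ cell A-type cyclin, was at 92.2 and 131 CPM in heterozygous testis, 61.5 and 102 CPM in homozygous testis, 123 and 105 CPM in the heterozygous IP and 133 and 94.6 CPM in the homozygous IP. For Ccna1 both heterozygous IP libraries lay above both homozygous testis libraries, and every other pair of groups overlapped. Ccna2, the A-type cyclin of S phase and G2 in dividing cells, was at 25.5 and 11.4 CPM in heterozygous testis and 19.3 and 11.8 CPM in homozygous testis. In the IPs Ccna2 was at 8.05 and 6.97 CPM (heterozygous) and 8.14 and 8.18 CPM (homozygous), below all 4 testis libraries. How many of all genes separated from testis in this way was not counted, here and below.

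Ccnb1, the B-type cyclin that drives CDK1 at entry into M phase, was at 4.33 and 34.2 CPM in heterozygous testis, on 26 and 505 reads. In homozygous testis it was at 3.45 and 8.27 CPM, in the heterozygous IP at 5.24 and 6.5 CPM and in the homozygous IP at 9.08 and 7.17 CPM. Heterozygous testis replicate 2 was thus the only library in which Ccnb1 exceeded 10 CPM. Ccnb2, the second B-type cyclin of M phase, was at 9.83 and 33.7 CPM in heterozygous testis and 10.2 and 35.6 CPM in homozygous testis, so the gap between replicates was the same size in both genotypes. Its IP levels, 38.7 and 31.7 CPM in heterozygous and 33.1 and 24.5 CPM in homozygous libraries, lay near those of the replicate 2 testis libraries. Ccnb3, a B-type cyclin expressed in early meiosis, was at 15 and 12.3 CPM in heterozygous testis, 12.9 and 20.8 CPM in homozygous testis, 8.52 and 10.3 CPM in the heterozygous IP and 13.4 and 11.8 CPM in the homozygous IP. The heterozygous IP held the 2 lowest libraries of Ccnb3.

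Cdc25c, the phosphatase that activates CDK1, was at 3 and 11 CPM in heterozygous testis and at 3.76 and 5.67 CPM in homozygous testis. In the IPs it was at 15.3 and 16.3 CPM (heterozygous) and 11.7 and 16 CPM (homozygous), above all 4 testis libraries. Plk1, the Polo kinase of M phase, showed the same order: 7.33 and 46.7 CPM in heterozygous testis, 6.5 and 26.9 CPM in homozygous testis, 50.6 and 49.1 CPM in the heterozygous IP and 68.5 and 54.2 CPM in the homozygous IP.

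Aurka, the kinase of centrosomes and spindle poles, was at 74.5 and 115 CPM in heterozygous testis, 63.6 and 101 CPM in homozygous testis, 84.5 and 82.9 CPM in the heterozygous IP and 118 and 107 CPM in the homozygous IP. Its germ cell relative Aurkc was at 1.5 and 2.23 CPM in heterozygous testis, 1.22 and 2.11 CPM in homozygous testis, 1.87 and 0.317 CPM in the heterozygous IP and 2.46 and 1.5 CPM in the homozygous IP, on 2 to 113 reads per library. The counts of 3 members carry a limit of sequence. Aurkc has 10 pseudogenes of 93.3 to 99.2% identity, Ccnb1 has 5 of 94.4 to 99.2%, and Plk1 has 1 of 93.5%; none of these has a row in the count tables, and how the counting treated reads that match several places is not given in the sources used here. Exons of Ccna2, Ccna1 and Plk1 also overlap exons of a gene on the opposite strand over 10.4%, 10.1% and 7.09% of their length, and whether strand was used in counting is not given either.

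The 2 testis libraries of a genotype differed more for some of these genes than the genotypes did. In heterozygous testis, replicate 2 over replicate 1 was 7.89-fold for Ccnb1, 6.36-fold for Plk1, 3.66-fold for Cdc25c and 3.43-fold for Ccnb2. In homozygous testis the same ratio was 2.4-fold for Ccnb1, 4.13-fold for Plk1, 1.51-fold for Cdc25c and 3.51-fold for Ccnb2. Aurka, Aurkc and Ccna1 were 1.42- to 1.74-fold higher in replicate 2 in both genotypes. Ccna2 went the other way, at 0.449 and 0.613 of its replicate 1 level. Over the 14180 genes compared, the log2 difference between replicates 2 and 1 had a median of 0.15 in heterozygous testis, and 96.6% of genes lay below Plk1 and 97.7% below Ccnb1. In homozygous testis 97.7% of genes lay below Plk1 and 96.5% below Ccnb2. Between IP replicates the ratio lay between 0.71 and 1.37 for every gene but Aurkc (0.169 and 0.61), which rests on 2 to 20 reads there.

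Summed marker levels also differed between these replicates, in directions that depended on the stage. The summed level of 7 markers of meiotic prophase was lower in replicate 2 in heterozygous testis (3075 and 1804 CPM) and higher in replicate 2 in homozygous testis (1093 and 2248 CPM). The homozygous sum was carried largely by Sycp2 (419 and 1116 CPM), while Dmc1 (42.9 and 30.8 CPM) and Mei1 (9.85 and 7.52 CPM) went the other way. The summed level of 6 markers of pachytene and later spermatocytes was 3353 and 9372 CPM in heterozygous testis and 2131 and 4754 CPM in homozygous testis, higher in replicate 2 in each. Elongating spermatid markers were 4182 and 22139 CPM in the heterozygous pair but 270 and 226 CPM in the homozygous pair, in which Plk1 and Ccnb2 also differed between replicates. The summed level of spermatogonia markers ran the opposite way, at 129 and 76.2 CPM in heterozygous and 247 and 126 CPM in homozygous testis, as Ccna2 did. Among them Sall4 was higher in replicate 2 (0.833 and 1.76 CPM heterozygous, 2.34 and 2.84 CPM homozygous). The part of cell content or depth in these gaps was not tested.

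**Figure D2:**
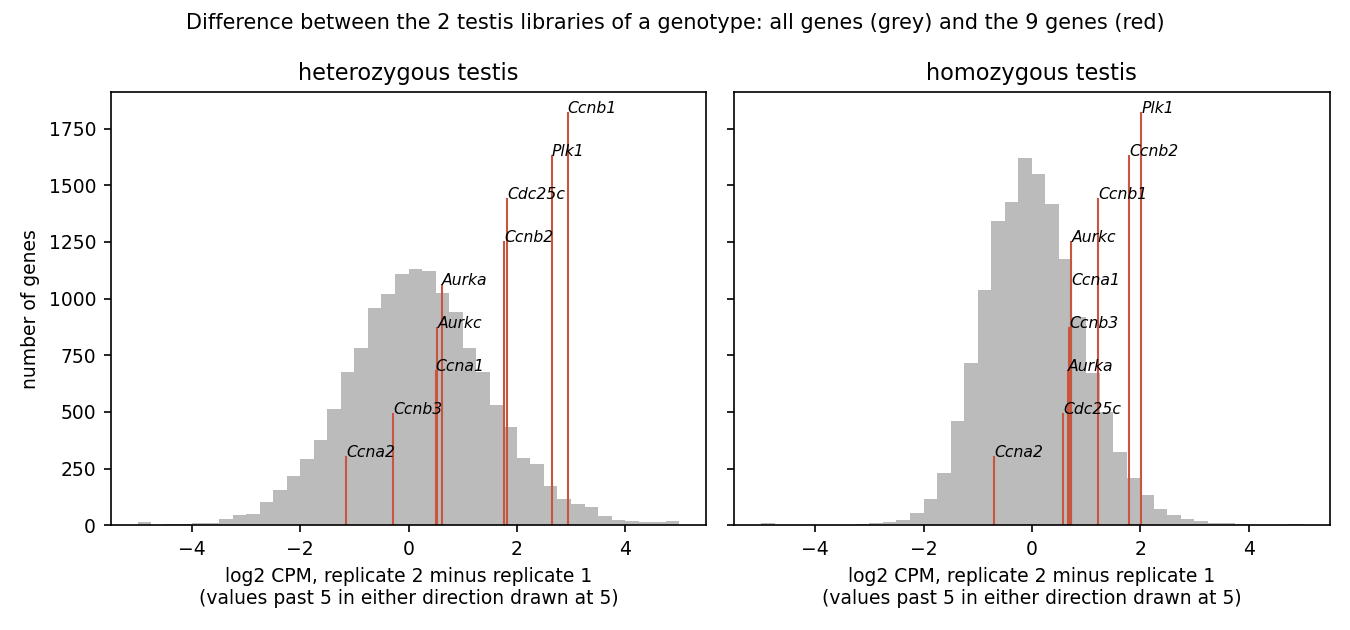
Difference in log2 CPM between replicate 2 and replicate 1 in each testis genotype: grey bars count the 14180 genes compared, and red lines mark the 9 genes, at heights chosen only to separate their names. Ccnb1, Plk1, Cdc25c and Ccnb2 stand high in heterozygous testis, Plk1, Ccnb2 and Ccnb1 also in homozygous testis, and Ccna2 lies below 0 in both.

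The comparison of homozygous with heterozygous testis asks which transcripts depend on intact Rnf17. None of the 9 genes passed the test, and the 2 genotypes' libraries overlapped for all 9. Within replicate numbers, homozygous over heterozygous testis was 0.668 and 0.778 for Ccna1, 0.853 and 0.884 for Aurka, 1.03 and 1.06 for Ccnb2 and 0.812 and 0.946 for Aurkc. The ratio was 0.757 and 1.03 for Ccna2 and 0.86 and 1.70 for Ccnb3. For Ccnb1 it was 0.797 and 0.242, for Plk1 0.886 and 0.576, for Cdc25c 1.25 and 0.517, and for these 3 genes the lower ratio came from the deeper pair.

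By edgeR's quasi-likelihood test with Benjamini-Hochberg adjustment over all genes, Ccnb1 had a log2 fold change of -1.72 ± 1.00 (SE; 95% interval -4.08 to 0.64; adjusted p = 0.643). Plk1 was at -0.70 (-3.06 to 1.66; adjusted p = 0.868) and Cdc25c at -0.58 (-2.39 to 1.22; adjusted p = 0.852). The narrowest intervals were those of Ccna1 (log2 fold change -0.45, interval -1.75 to 0.84) and Aurka (-0.20, -1.51 to 1.10), so that the interval of Aurka held a 2-fold change in either direction and that of Ccna1 a 2-fold decrease. The others were Ccna2 at -0.25 (-1.77 to 1.27), Ccnb2 at 0.07 (-1.91 to 2.05), Ccnb3 at 0.31 (-1.05 to 1.68) and Aurkc at -0.16 (-1.74 to 1.42). At this setting 0% of the 14332 genes tested were called and 10.1% had an unadjusted p under 0.05, against 0 of the 9; DESeq2 called 5.05% of all genes and 0 of the 9. The log2 fold changes of the 9 had a median of -0.25, beside 0.04 over all genes, and 7 of 9 lay below 0, of which Ccna1, Ccna2, Aurka and Aurkc lay above 0 without a scaling factor, where the all-gene median was 0.53. With heterozygous testis replicate 1 left out, Ccnb1 was at -2.54, and with heterozygous testis replicate 2 left out it was at 0.46. In each of these fits that group is 1 library assumed to vary like the other. Of the 9, only Ccna1 kept its direction whichever library was left out (-0.84 to -0.057, TMM scaling). The authors' deposited table of 734 genes, of which 595 have an adjusted p under 0.05 there, lists none of the 9.

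The comparison of the heterozygous with the homozygous IP sets RNA recovered with RNF17 against recovery by the same antibody in the homozygous lysate. None of the 9 genes passed the test, while 30.1% of all 13427 genes tested did (2371 higher and 1671 lower in the heterozygous IP). Without a scaling factor, that split became 3145 higher and 832 lower. An unadjusted p under 0.05 was found for 41.6% of all genes and for 0 of the 9, and DESeq2 called 26.5% of all genes and 0 of the 9. Ccna1 was at a log2 fold change of 0.09 ± 0.22 (95% interval -0.40 to 0.57; adjusted p = 0.805 by edgeR), with heterozygous means of 114 ± 13.1 CPM and homozygous means of 114 ± 27.3 CPM. Both bounds for Ccna1 thus lay within a 2-fold change.

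Aurka had the smallest adjusted p of the 9, at -0.34 ± 0.19 (-0.76 to 0.08; adjusted p = 0.21 by edgeR), and both heterozygous libraries lay below both homozygous ones. In CPM, scaled over all 8 libraries, the genotypes' libraries also did not overlap for Ccna2, Ccnb1, Ccnb3 and Plk1. The heterozygous IP was again lower, for Ccna2 only by 8.05 against 8.14 CPM in the nearest libraries. How many of all genes separated in this way was not counted, so the lack of overlap has no background to be read against. The log2 fold changes of these 4 genes, from the fit of the IPs alone with its own scaling, were -0.03 (-0.75 to 0.69), -0.39 (-1.17 to 0.38), -0.35 (-1.01 to 0.31) and -0.21 (-0.69 to 0.26). Without a scaling factor those of Ccna2 and Plk1 changed sign. Ccnb2 was at 0.38 (-0.17 to 0.92) and Cdc25c at 0.27 (-0.35 to 0.88). Aurkc was at -0.62 with the widest interval (-2.16 to 0.93), and at -2.47 without heterozygous IP replicate 1 and -0.00015 without heterozygous IP replicate 2. The median of the 9 was -0.21, beside 0.03 over all genes. All 9 elongating spermatid markers were higher in the heterozygous IP in the same test. The lysates also differ in these markers. Of 7 meiotic prophase markers, Sycp3, Hormad1, Sycp1 and Dmc1 were called lower in the heterozygous IP and 0 higher, with a list median of -0.86. The part of either marker group in the IP comparison was not tested.

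**Figure D3:**
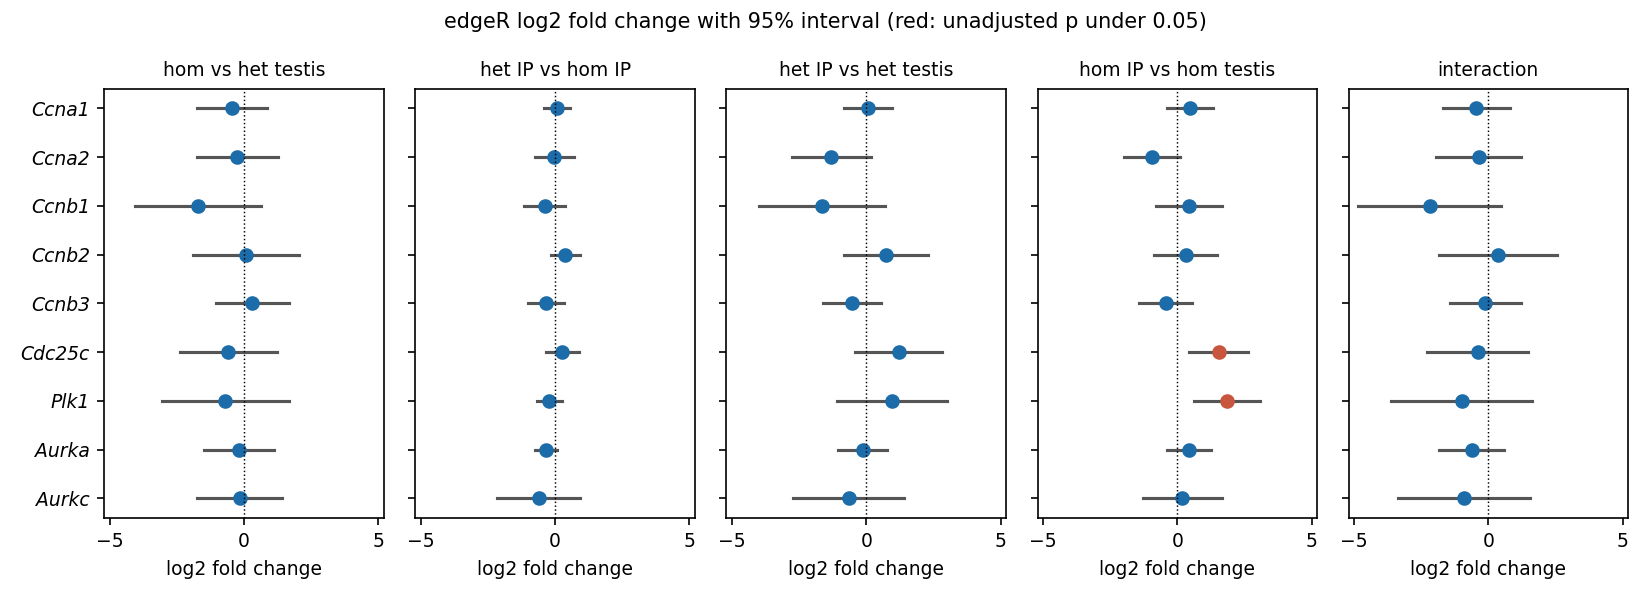
Log2 fold change with 95% interval from edgeR for each of the 9 genes in the testis comparison, the IP comparison, each IP against its own testis libraries and the interaction; red points have an unadjusted p under 0.05. The intervals between the IPs are the shortest for every gene but Aurkc and all cross 0, and in the homozygous IP against homozygous testis those of Plk1 and Cdc25c lie above 0.

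Each IP was then set against testis libraries of its own genotype, which stand for the lysate. The testis libraries enter these comparisons and the genotype comparison alike, so they are not independent. In the homozygous pair, Plk1 and Cdc25c were the only genes of the 9 with an unadjusted p under 0.05 (Plk1 0.00633, Cdc25c 0.0104), and neither passed after adjustment. Plk1 was at 1.86 ± 0.56 (95% interval 0.63 to 3.08; adjusted p = 0.0861 by edgeR and 0.0164 by DESeq2). Cdc25c was at 1.54 ± 0.50 (0.44 to 2.64; adjusted p = 0.107 by edgeR and 0.0426 by DESeq2). The ratio of the IP mean to the testis mean was 3.68 for Plk1, but 10.5 by the replicate 1 libraries and 2.02 by the replicate 2 libraries. For Cdc25c it was 2.94, and 3.12 and 2.83 by number. The share of genes called was 3.28% by edgeR and 11.3% by DESeq2, which called 2 of the 8 it gave an adjusted p, and 22.7% had an unadjusted p under 0.05. Without homozygous testis replicate 1, which leaves 1 library in that group, Plk1 was at 1.18 and Cdc25c at 1.28. Without homozygous testis replicate 2, Plk1 was at 3.15, Cdc25c at 1.80, Ccnb2 at 1.42, Ccna1 at 0.80 and Ccna2 at -1.33.

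Cdc25c and Plk1 were higher in both IPs than in testis without overlap. So was Aurka in the homozygous IP, while Ccnb3 was lower without overlap in the heterozygous IP. How many of all genes separated in this way was not counted. Ccna2 was lower in both IPs than in testis, also without overlap. Its log2 fold change was -0.93 (-1.99 to 0.12; adjusted p = 0.272 by edgeR) in the homozygous and -1.29 (-2.75 to 0.17; adjusted p = 0.304 by edgeR) in the heterozygous pair. In the heterozygous pair Cdc25c was at 1.21 (-0.41 to 2.84) and Plk1 at 0.96 (-1.09 to 3.01), and the IP over testis ratio of Plk1 was 6.91 by the replicate 1 libraries and 1.05 by the replicate 2 libraries. Ccnb1 was at -1.65 (-3.98 to 0.69) and Ccnb2 at 0.75 (-0.81 to 2.31). There edgeR called 0% of all genes and 0 of the 9, DESeq2 5.03% and 0 of 8 with an adjusted p, and 18.1% of all genes but 0 of the 9 had an unadjusted p under 0.05. The estimates turned on single testis libraries. Without heterozygous testis replicate 2, which leaves 1 library in that group, Plk1 was at 2.71, Cdc25c at 2.34, Ccnb2 at 1.79 and Ccna2 at -1.80. Without heterozygous testis replicate 1, Ccnb1 was at -2.54. The remaining members lay between -0.65 (Aurkc) and 0.07 (Ccna1) in the heterozygous pair and between -0.43 (Ccnb3) and 0.47 (Ccna1) in the homozygous pair.

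The interaction term asks whether the IP to testis ratio differs between genotypes. No member passed (edgeR), and the estimate farthest from 0 was that of Ccnb1, at -2.18 ± 1.17 on the log2 scale (-4.85 to 0.49; adjusted p = 0.611 by edgeR). With 1 library left out at a time that estimate lay between -2.99 and -0.0039, nearest to 0 without heterozygous testis replicate 2. Plk1 was at -0.99 (-3.63 to 1.64), Aurkc at -0.91, Aurka at -0.62 and Cdc25c at -0.40. Of all 14180 genes 0% were called by edgeR, 9.68% had an unadjusted p under 0.05, and DESeq2 called 3.78% of those it gave an adjusted p; 0 of the 9 passed any of these, and DESeq2 gave an adjusted p for 4 of them. The estimates were below 0 for 8 of 9, with a median of -0.45 beside 0.02 over all genes. Without a scaling factor the all-gene median moved to 0.87 and 5 of those signs turned, those of Ccna1, Ccna2, Ccnb3, Cdc25c and Aurka.

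The partners of these genes were followed in 4 lists of 65 genes: other cyclins, CDKs with their direct regulators, partners and relatives of the Aurora and Polo kinases, and the anaphase-promoting complex with the spindle checkpoint. In testis 0 of 62 tested genes were called by edgeR and 0 by DESeq2, and 1 had an unadjusted p under 0.05. Over all genes these shares were 0%, 5.05% and 10.1%. The most abundant member of each list, named because none passed, was Ccnh (cyclin of the CDK-activating kinase; 71.2 and 22.6 CPM heterozygous, 42.4 and 54.2 homozygous), Hspa2 (the chaperone that CDK1 needs in spermatocytes; 1451 and 3518, 1442 and 3356 CPM), Gsg2 (haspin; 180 and 941, 115 and 317 CPM) and Cdc27 (a subunit of the anaphase-promoting complex; 276 and 274, 159 and 273 CPM). Cdk1, the partner of the A- and B-type cyclins, was singled out after its values were seen: it was at 13 and 18.1 CPM in heterozygous and 18.8 and 38.7 CPM in homozygous testis (log2 fold change 0.88, adjusted p = 0.703 by edgeR).

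In the IP comparison 18 of the 62 partners were called (29.0%, near the 30.1% of all genes), 4 higher and 14 lower in the heterozygous IP. Without a scaling factor, 9 were higher and 6 lower, and in 1 fit over all 8 libraries 0 were called. Among partners of the Aurora and Polo kinases, Incenp, the scaffold of the chromosomal passenger complex, was at 113 and 143 CPM in the heterozygous and 294 and 336 CPM in the homozygous IP. Its log2 fold change was -1.21 ± 0.20 (adjusted p = 0.0011 by edgeR). Tpx2, the activator of Aurora A, was at 67.5 and 81.8 against 150.2 and 196 CPM (-1.13 ± 0.21, adjusted p = 0.00225 by edgeR). Aurkb, the mitotic Aurora kinase of the passenger complex, was at 13.6 and 11.7 against 25.7 and 26 CPM (-0.94 ± 0.26, adjusted p = 0.0163 by edgeR). Within this list 4 of 9 were lower and Plk4, the centriole kinase, was higher (113 and 108 against 81.9 and 71.4 CPM), a call that DESeq2 did not make (adjusted p = 0.0577).

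In the checkpoint list 6 of 26 were lower and 3 higher. Ttk, Bub3 and Bub1b, components of the spindle checkpoint, were lower in the heterozygous IP by -1.05 ± 0.20, -1.15 ± 0.22 and -1.01 ± 0.21 on the log2 scale (adjusted p = 0.00204, 0.00279 and 0.00351 by edgeR). Ttk, for example, was at 66.9 and 77.3 against 155 and 162 CPM. The 3 that were higher, named after their values were seen, were Ube2c, the ubiquitin-conjugating enzyme of the anaphase-promoting complex (7.67 and 9.67 against 3.78 and 2.34 CPM), the separase inhibitor Pttg1 (48.5 and 42.3 against 24 and 23.9 CPM) and the checkpoint kinase Bub1 (69 and 71 against 49.2 and 34.2 CPM). Of the CDK list 3 of 20 were lower: Hspa2, at 1256 ± 176 against 2690 ± 230.1 CPM (-1.01 ± 0.22, adjusted p = 0.00531 by edgeR), Ensa, an inhibitor of the phosphatase that opposes CDK1 (-0.87 ± 0.26, adjusted p = 0.027 by edgeR), and the CDK1-inhibiting kinase Wee1 (-0.82 ± 0.26, adjusted p = 0.0339 by edgeR). Ccnd2, a D-type cyclin of G1, was the only other cyclin called, at 7.86 and 13.8 against 23.5 and 26.4 CPM (-1.14 ± 0.31, adjusted p = 0.0167 by edgeR).

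With 1 IP library left out at a time, 6 to 29 of the partners were called, lowest without heterozygous IP replicate 1, where Ccnd2, Hspa2, Ensa, Wee1, Aurkb, Plk4, Pttg1 and Bub1 were no longer called. Incenp, Tpx2, Ttk, Bub3 and Bub1b were called in every one of these 4 fits. Without heterozygous IP replicate 2, Ube2c, Aurkb, Wee1, Plk4 and Bub1 were not called, and without homozygous IP replicate 2, Wee1, Plk4 and Bub1 were not. The lists so far cover only the partners named above, and calls of others were lost in some of these fits too. With 1 IP library left out, 6720463M24Rik lay between -1.02 and -0.33 and Cdc16 between -1.55 and -0.34. Cdc23 lay between -1.20 and -0.38 and Mad1l1 between -0.89 and -0.54. Without a scaling factor, the calls of Ccnd2, Ensa, Wee1, Aurkb, 6720463M24Rik, Cdc16, Cdc23 and Mad1l1 were lost, in the same direction. In the heterozygous IP against its testis edgeR called 0 of 62 partners. Of these 62, 15 had an unadjusted p under 0.05 and DESeq2 called 5, beside 18.1% and 5.03% of all genes. For the interaction edgeR called 0 of the partners and DESeq2 2, beside 0% and 3.78% of all genes. The DESeq2 shares are of genes it gave an adjusted p. In the homozygous IP against its testis 15 of 61 had an unadjusted p under 0.05 and DESeq2 called 6, beside 22.7% and 11.3% of all genes. There edgeR called 1 of 61, beside 3.28% of all genes. The gene called was 6720463M24Rik, also known as Bora, the cofactor by which Aurora A activates PLK1. It was at 75.9 and 120.1 CPM in the IP and 23.4 and 28.6 CPM in testis (1.91 ± 0.39, adjusted p = 0.0293 by edgeR). That call was lost without homozygous IP replicate 1 (adjusted p = 0.0542 by edgeR), without homozygous IP replicate 2 (0.424) and in 1 fit over all 8 libraries (0.0909).

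**Figure D4:**
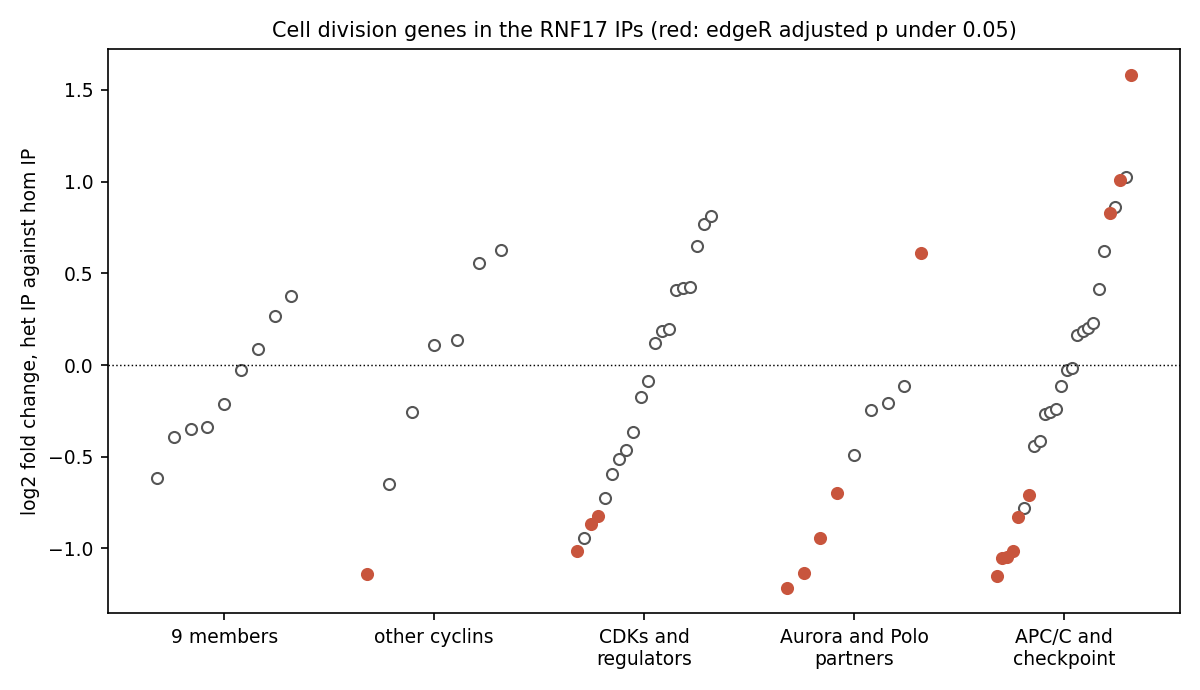
Log2 fold change, heterozygous over homozygous IP, of the 9 genes and of each tested gene in the 4 partner lists; filled red points passed edgeR's test at an adjusted p under 0.05. None of the 9 is filled, and the filled partners lie mostly below 0, at 14 lower and 4 higher.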

How the data were processed

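RNA was measured in 4 testis libraries and 4 RNF17 immunoprecipitate libraries, made from total RNA with not-so-random priming, per the labels' protocols. The values used are read counts per gene as deposited, not normalized; STAR, DESeq and the mm9 build are named in the submitters' processing notes, and how reads were assigned to genes is not given in the sources used here. A table of differing genes deposited by the authors holds mean signal (normalized count) per group, a log2 fold change with its standard error (listed as a score) and p-values; it served only to look the genes up. Transposon tables were not used. Every count column matched 1 sample, and columns repeated between tables were identical.

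Gene counts were tested with edgeR 4.0.16 in R 4.3.3 (TMM scaling, filterByExpr, quasi-likelihood test, Benjamini-Hochberg adjustment over all genes tested, threshold 0.05), with only the compared groups in each fit; the interaction used all 8 libraries. DESeq2 1.42.0, RLE scaling, no scaling factor, no filter, a replicate block, 1 fit over all 8 libraries and leaving out each library were alternatives. The edgeR procedure was also run on simulated counts whose dispersions were fixed in advance and not taken from the spread of these libraries. That run does not measure the power of the testis comparison. CPM use 1 TMM scaling over all 8 libraries, and lengths are unions of GENCODE M21 exons. Partners were named by rule: up to 3 called genes per list with the smallest adjusted p, else the most abundant. The 9 genes, the lists and the rules were chosen with earlier results of these data known. Deposited counts carry no molecular identifiers, so PCR copies may be counted.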

Additional observations from a re-analysis of the deposited data

How the results depend on the processing

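None of the 9 genes was called by edgeR in any comparison, and RLE scaling gave the same. The counts of all called genes moved more. In testis (0) they were 710 by DESeq2, 361 without a filter, 943 with the replicate block, 655 in 1 fit over all 8 libraries, and 73 to 1273 with 1 library left out. For the heterozygous against the homozygous IP (4042) they were 487 in 1 fit over all 8 libraries and 2069 to 5414 with 1 left out; the partners called there (18) were 0 and 6 to 29. For the heterozygous IP against testis (0) they were 603 by DESeq2, 1 without a filter, 194 with the replicate block, 3 in 1 fit over all 8 libraries and 11 to 7278 with 1 left out. For the homozygous IP against testis (438; 245 higher, 193 lower) they were 1333 by DESeq2, 1124 without a scaling factor (231 higher, 893 lower), 1469 without a filter, 1010 with the replicate block, 51 in 1 fit over all 8 libraries and 89 to 4556 with 1 left out. For the interaction (0) they were 245 by DESeq2, 10 without a scaling factor and 0 to 259 with 1 left out.

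Of the 9 genes, 0 to 1 were called in testis, 0 to 4 in the heterozygous and 0 to 5 in the homozygous IP against testis with 1 library left out, where a group is then 1 library assumed to vary like the others. In the homozygous pair DESeq2 called 2, the fit without a filter 1 (Plk1) and the replicate block 1 (Plk1, adjusted p = 0.00319 by edgeR). Same-numbered heterozygous and homozygous testis libraries deviated together (r = 0.588), but with 2 pairs a number is not shown to pair samples; for the IP pairs r was between -0.119 and 0.0606. Crossing the numbers of the homozygous IP, tried after seeing the data, called 1787 genes and 2 of the 9. Without length, 5 of 9 genes kept their rank of level in heterozygous testis.

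Without a scaling factor the median of all genes moved to 0.53 in testis, 0.30 between IPs, 0.32 and -0.46 for the heterozygous and homozygous IP against testis and 0.87 for the interaction, and these uncalled estimates changed sign: testis Ccna1 0.028, Ccna2 0.21, Aurka 0.29 and Aurkc 0.32; between IPs Ccna2 0.25 and Plk1 0.050; heterozygous IP against testis Aurka 0.24; homozygous IP against testis Ccnb2 -0.029 and Aurkc -0.19; interaction Ccna1 0.37, Ccna2 0.46, Ccnb3 0.66, Cdc25c 0.53 and Aurka 0.22. For Ccna1 in the heterozygous IP against testis DESeq2 gave -0.0058 and RLE scaling -0.0057. The cause was not tested.

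With 1 library left out, sign changes gave these ranges. In testis they were Ccna2 -0.72 to 0.41, Ccnb1 -2.54 to 0.46, Ccnb2 -1.06 to 1.23, Ccnb3 -0.073 to 0.68, Cdc25c -1.23 to 0.66, Aurka -0.55 to 0.18, Aurkc -0.61 to 0.24 and Plk1 -2.01 to 1.20. Between IPs they were Ccna1 -0.13 to 0.33 and Ccna2 -0.14 to 0.056. For the heterozygous IP against testis they were Ccna1 -0.17 to 0.26, Ccnb1 -2.54 to 0.37, Aurka -0.43 to 0.12 and Aurkc -2.49 to 0.024, and for the homozygous pair Ccnb1 -0.042 to 1.14, Ccnb2 -0.32 to 1.42 and Aurkc -0.18 to 0.60. For the interaction they were Ccna2 -0.84 to 0.31, Ccnb2 -0.76 to 1.53, Ccnb3 -0.48 to 0.27, Cdc25c -1.02 to 0.86 and Plk1 -2.29 to 0.92. Depth limits Aurkc most, with as few as 2 reads.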

Other observations

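Genes whose log2 CPM followed each member most closely over the 8 libraries were sought among the 9063 genes averaging 3 or more on the log2 CPM scale, and are given as a description; the points share libraries and depth. For Plk1 they were Zmynd15 (Pearson r = 0.993) and Fam134a (0.991), for Ccnb2 Kat5 (0.994) and Ap4m1 (0.990), and for Cdc25c Lztr1 (0.993) and Pex6 (0.986). For Ccnb1 they were Kcnk2 (0.987) and Tmem231 (0.980), for Ccna2 5830433M19Rik (0.985) and Klf12 (0.983), and for Ccnb3 Nck1 (0.981) and Dnahc8 (0.960). Ccna1 was followed by Nup210l (0.933) and Gba2 (0.926), Aurka by Ammecr1l (0.978) and Ntpcr (0.974), and Aurkc, on few reads, by Hspbap1 (0.870) and Mib1 (0.869).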
